A study of Mus musculus with 12 samples.

Results

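In the miR-34 experiment, hippocampal RNA was compared between 3 GFP-miR-34sp mice, which received a sponge against the miR-34 family, and 3 GFP Ctrl mice. These were the 6 of the 12 deposited libraries whose titles begin with miR34 or GFP34, and all RefSeq rows were used. Each library came from the bilateral hippocampal tissue of 1 male wild-type C57BL/6 mouse. Mice received a pseudotyped AAV2/5 vector at an age of 10 weeks, and tissue was taken 10 weeks later. All vectors carried a GFP reporter under the human synapsin promoter, which is active in neurons, and the sponge vector added 8 imperfectly complementary miR-34 sites after GFP. The other 6 libraries, 3 of a miR-9 sponge and 3 of a second GFP Ctrl set that the study's methods place with it, served for the test of the difference between the sponges, for 1 model of all 12 mice and to show how far choroid plexus reads varied. Mice are called by the number in their title.

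miRNAs are short RNAs that guide the RNA-induced silencing complex (RISC) to messenger RNAs, mostly through pairing of the seed, bases 2 to 8 of the miRNA, with the 3′ UTR. Pairing lowers translation and the stability of the target, so a sponge that occupies the miRNA is meant to release its targets. The miR-34 family is a transcriptional target of p53 and is known for its action on cell cycle, Notch and survival genes. In the brain it has been studied in neuronal differentiation, stress and memory.

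The miR-34 family shares its seed with the miR-449 family, so sites for one are also sites for the other. The mature sequences below, from RefSeq (GRCm38.p6), are shown because this shared seed, in capitals, defines the sites that the predicted targets were searched for.
mmu-miR-34a-5p: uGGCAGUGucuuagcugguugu
mmu-miR-34b-5p: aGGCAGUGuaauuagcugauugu
mmu-miR-449a-5p: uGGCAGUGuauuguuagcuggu
mmu-miR-449c-5p: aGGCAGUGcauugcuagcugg
They lie at chr4:150068473-150068494 on the plus strand, chr9:51103610-51103632 on the minus strand, chr13:113037549-113037570 on the plus strand and chr13:113036008-113036028 on the plus strand. miR-34c-5p and miR-449b-5p are the other members.

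The deposited values were raw read counts per RefSeq transcript, with totals of 11029604 to 16934133 per mouse. The floor of 3 reads amounted to 0.177 to 0.272 reads per 1000000 counted reads (RPM), which covers counting error only. In every pair of mice of a group the counts differed by more than sampling noise (chi-square per degree of freedom 2.52 to 4.99). The label names hippocampal neurons as the cell type, but the tissue was the whole hippocampus, and the summed markers of astrocytes held 5787 to 6347 RPM, those of microglia 695 to 749 and those of oligodendrocytes 972 to 1243. In such bulk tissue, fewer cells of a type and less RNA per cell cannot be told apart. Each transcript entry of a gene was counted separately, and 56.2% of entries of genes with 1 entry exceeded 10 reads, against 9.07% of entries of genes with 3 or more. The values below are normalised read numbers, scaled to the mean total of the 6 mice. Adjusted p is that of edgeR's quasi-likelihood test after Benjamini-Hochberg correction over the 12787 transcripts with a mean above 10 reads.

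The sponge itself could not be checked in these counts, because mature miRNAs and the vector are not rows of a RefSeq mRNA table. Entries of the miR-34 and miR-449 genes held almost no reads in the poly-A RNA of both groups, which does not measure the mature miRNAs. From its sensor mice the study reports miR-34 activity in all cell types of the hippocampus. Mir34a, Mir34b, Mir449a, Mir449b and Mir449c had 0 reads in each of the 6 mice, and Mir34c had 1 read, in GFP-miR-34sp mouse 13. Cdc20b, the host gene of the miR-449 locus, had 7 reads over the 6 mice, and Btg4, the neighbour of miR-34b and miR-34c, had 2.

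The 4 transcripts that edgeR called lower in the GFP-miR-34sp mice were of genes of the choroid plexus. This epithelium secretes cerebrospinal fluid and lies against the hippocampus in the ventricles. Of 12787 transcripts, 4 (0.0313%) passed the adjusted p limit of 0.05 in the lower direction, and 0 passed in the higher direction. At an unadjusted p under 0.05, 354 (2.77%) were higher and 461 (3.61%) were lower, and DESeq2 called 1 higher and 36 lower after adjustment, 15 of the 36 not on the list of choroid plexus genes. The 4 that edgeR called lower were Ttr, Tmem72, Aqp1 and Slc16a8, all on a list of 44 choroid plexus genes. In the plot of fold change against read number they lie low, but other transcripts lie near them. Kcne2 and Wfdc2, also on the list, had log2 fold changes of -3.88 and -3.93, and Steap1, not on it, had -3.12.

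**Figure D1:**
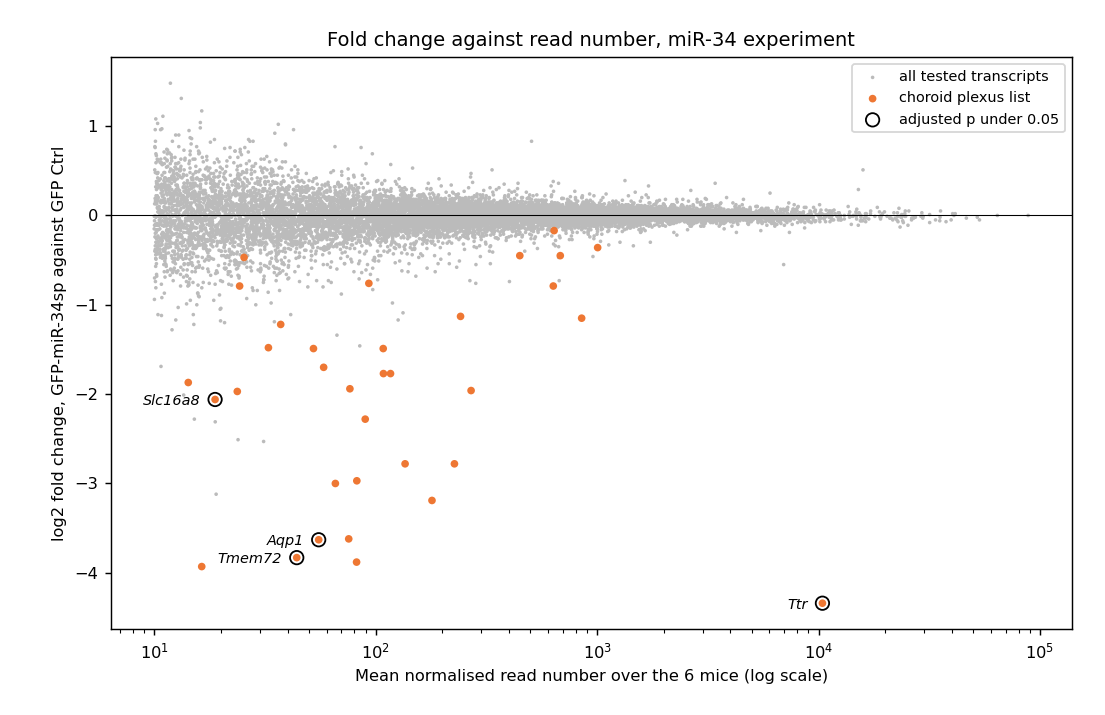
The log2 fold change of GFP-miR-34sp against GFP Ctrl (y axis) is plotted against the mean normalised read number over the 6 mice (x axis, log scale) for the 12787 tested transcripts. Grey points are all transcripts, orange points the choroid plexus list and circles the 4 transcripts with an adjusted p under 0.05, which lie at -2.06 to -4.34.

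Ttr encodes transthyretin, the thyroid hormone carrier that the choroid plexus secretes. Its normalised read number was 7530, 23582 and 28455 in GFP Ctrl mice 10, 4 and 8, and 1346, 362 and 1179 in GFP-miR-34sp mice 13, 18 and 3. Every sponge mouse lay below every control, and among the controls mouse 10 was the lowest. The group means differed 20.6-fold, with a log2 fold change of -4.34 (standard error 0.49, adjusted p = 0.0266).

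Aqp1 (mm9 chr6:55286426-55298549) encodes the water channel of the apical choroid plexus membrane. It had 42.1, 133 and 133 reads in GFP Ctrl mice 10, 4 and 8 and 9.31, 5.62 and 8.71 in sponge mice 13, 18 and 3. The groups did not overlap, and control mouse 10 again lay nearest to the sponge mice. The log2 fold change was -3.63 (standard error 0.48, adjusted p = 0.0376).

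Tmem72 (chr6:116642648-116666931), which encodes a transmembrane protein, had 37.3, 113 and 97.8 reads in the controls and 7.76, 3.37 and 4.84 in the sponge mice, in the same order. The sponge mice had few reads, all below the lowest control. The log2 fold change was -3.83 (standard error 0.48, adjusted p = 0.0361). Of the 4, only Tmem72 had a miR-34 site in its longest annotated 3′ UTR, an 8mer at base 570 of 2421. The site is shown here because the transcript was lower in the GFP-miR-34sp mice, with the match in capitals.
Tmem72: cactctgtgctCACTGCCAggaaagctgac

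Slc16a8 (chr15:79081444-79085191) encodes a lactate transporter of the choroid plexus and retinal pigment epithelium. Its read number was 26.8, 35.6 and 28.9 in control mice 10, 4 and 8, against 6.21, 6.75 and 8.71 in sponge mice 13, 18 and 3. Unlike Ttr, its controls lay close together, with a mean of 30.4 ± 4.59 (SD, n = 3) against 7.22 ± 1.32 (SD, n = 3). The log2 fold change was -2.06 (standard error 0.28, adjusted p = 0.0426).

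The calls depended on single mice, while the size of the differences did not. Over the alternatives that tested them, the log2 fold change ranged from -4.73 to -3.97 for Ttr, -4.02 to -3.38 for Aqp1, -4.25 to -3.55 for Tmem72 and -2.21 to -1.94 for Slc16a8. With control mouse 10 left out, 59 transcripts were lower and 1 was higher, and 31 of the 59 were on the choroid plexus list. With control mouse 4, or any of the sponge mice, left out, 0 transcripts passed, and with control mouse 8 left out 1 did. The DESeq2 calls included 21 members of the list. In edgeR, 1 model of all 12 mice also gave 0 calls, and so did the limit of 100 reads, which Aqp1, Tmem72 and Slc16a8 do not reach.

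The rest of the choroid plexus list lay on the same side. Of its 44 genes, 34 had 1 tested transcript each. All 34 had a log2 fold change below 0, with a median of -1.82 against -0.00 over all tested transcripts. In 31 of the 34, all sponge mice lay below all controls, where 5.7% of all tested transcripts did so and 5.88% had all sponge mice above. An unadjusted p under 0.05 was reached by 32, all lower, where 3.61% of all tested transcripts were lower at that limit. The fold change was at least 4-fold in 13 and at least 8-fold in 8. Some members passed the limit of 10 reads only through the controls, which favours lower values in these counts. Among them were Wfdc2, Tmem72, Slc16a8 and Aqp1, with sponge means of 1.81, 5.32, 7.22 and 7.88 reads. Control mouse 10 was the lowest control in all 34, whereas it was the lowest in 34.3% of all tested transcripts. The list was assembled with earlier results of these data known, so its counts describe these mice and are not independent evidence of a direction.

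Of the remaining 10 genes of the list, Folr1, a folate receptor, and Atp4a, a proton pump subunit, had no read in any of the 6 mice. Otx2, a transcription factor of the choroid plexus, had reads on 1 of its 4 entries, at most 2.22 in a control and 0 in each sponge mouse. Wdr72 had 6.7, 21.4 and 11.1 reads in controls 10, 4 and 8 and 0.968 in sponge mouse 3, with 0 in the other sponge mice. Calml4, Lmx1a, Ace, Spint2, Pon1 and Bst1 also stayed under the limit of 10 reads.

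**Figure D2:**
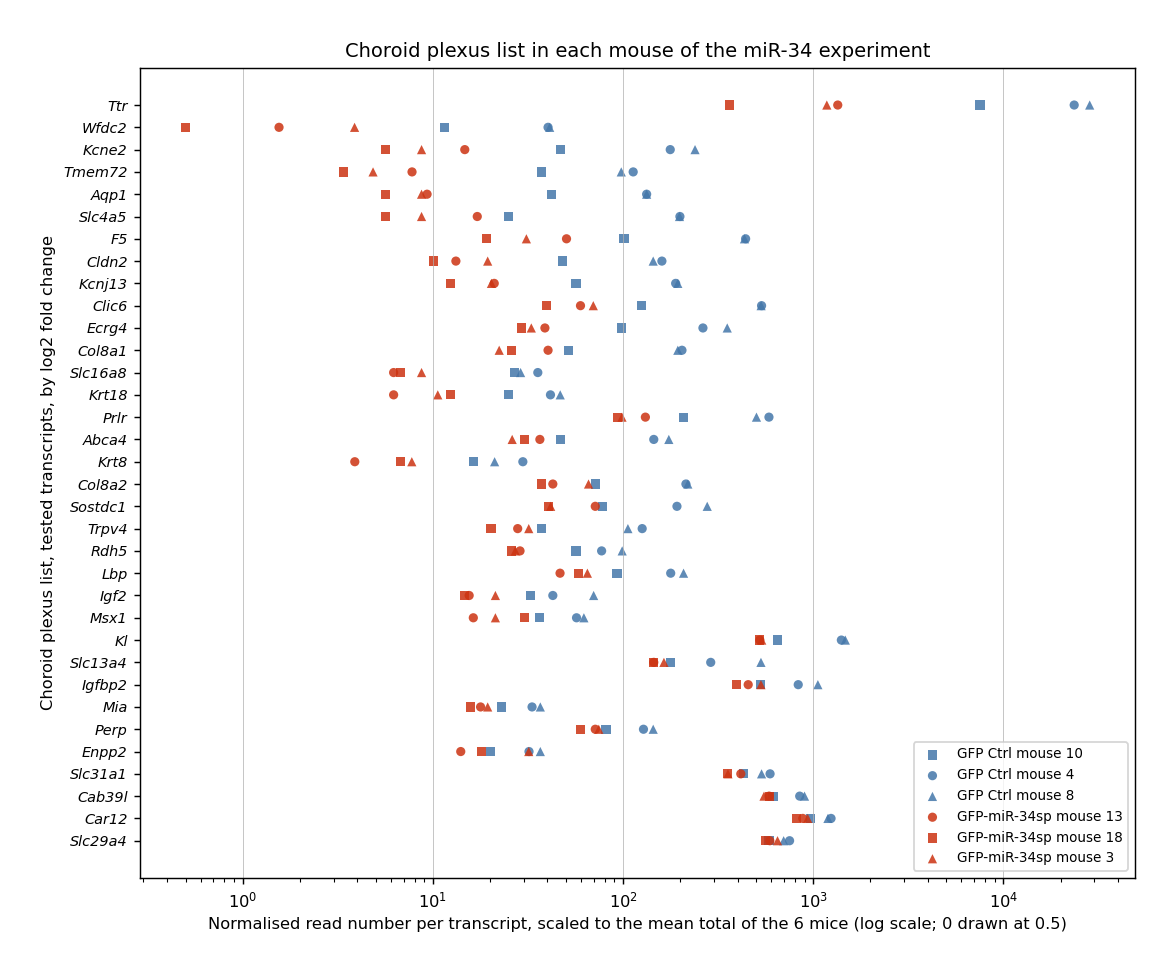
Normalised read number (x axis, log scale, 0 drawn at 0.5) of each of the 34 tested transcripts of the choroid plexus list (y axis, ordered by log2 fold change) in the 3 GFP Ctrl mice (blue) and the 3 GFP-miR-34sp mice (red). The blue square, control mouse 10, is the lowest of the blue points in all 34, and in Slc29a4, Enpp2 and Igfbp2 the groups overlap.

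Among channels and transporters, Kcne2, an accessory subunit of potassium channels, had 46.9, 177 and 239 reads in controls 10, 4 and 8 and 14.7, 5.62 and 8.71 in sponge mice 13, 18 and 3 (adjusted p = 0.0507). Kcnj13, an inward rectifier potassium channel, had 56.5, 189 and 194 against 21, 12.4 and 20.3 (adjusted p = 0.0501). Both just missed the limit, with the groups apart and control 10 lowest. The chloride channel gene Clic6 and the bicarbonate cotransporter gene Slc4a5 had log2 fold changes of -2.78 and -3.62 (adjusted p = 0.0842 and 0.169), and the cation channel gene Trpv4 had -1.70 (adjusted p = 0.266). The copper transporter Slc31a1 and the sulfate transporter Slc13a4 differed less, by -0.45 and -1.13, and the monoamine transporter Slc29a4 by -0.17 (adjusted p = 0.82), with overlapping groups. The carbonic anhydrase gene Car12 had -0.36, with 963, 1241 and 1195 reads in the controls and 881, 818 and 935 in the sponge mice.

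Genes of the epithelial barrier and of secreted proteins had differences of similar size. Cldn2, the tight junction protein of leaky epithelia, had 47.9, 160 and 144 reads in controls 10, 4 and 8 and 13.2, 10.1 and 19.4 in sponge mice 13, 18 and 3 (adjusted p = 0.0501). The keratins Krt18 and Krt8 had log2 fold changes of -1.97 and -1.87 (adjusted p = 0.0842 and 0.177). Ecrg4, a secreted peptide precursor, had 97.7, 263 and 353 reads against 38.8, 29.2 and 32.9 (log2 fold change -2.78, adjusted p = 0.0501). Coagulation factor F5 had 101, 441 and 435 against 50.4, 19.1 and 31 (log2 fold change -3.19, adjusted p = 0.0724). In all of these the sponge mice lay below the controls. Kl, which encodes the ageing suppressor klotho, kept more of its reads, with 524, 520 and 536 in sponge mice 13, 18 and 3 and 647, 1406 and 1475 in controls 10, 4 and 8 (log2 fold change -1.15, adjusted p = 0.188).

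The list also held receptor and growth factor genes. Prlr, the prolactin receptor, had 207, 585 and 503 reads in controls 10, 4 and 8 and 131, 93.3 and 98.7 in sponge mice 13, 18 and 3 on its main entry, a log2 fold change of -1.96 (adjusted p = 0.0724). Sostdc1, a secreted antagonist of BMP and Wnt ligands, had 77.6, 192 and 277 against 71.4, 40.5 and 41.6 (log2 fold change -1.77, adjusted p = 0.237). Igf2 had 32.6, 42.7 and 70 against 15.5, 14.6 and 21.3 (log2 fold change -1.48, adjusted p = 0.199). Igf2 holds 2 8mer sites for miR-34 and was lower, not higher, in the sponge mice. The IGF carrier Igfbp2 had 529, 834 and 1058 reads in the controls and 455, 396 and 531 in the sponge mice, so that control 10 lay within the sponge range.

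The summed reads of the whole list showed how much the mice differed within groups. They were 995, 2597 and 3022 RPM in GFP Ctrl mice 10, 4 and 8 and 440, 335 and 442 in GFP-miR-34sp mice 13, 18 and 3. Without Ttr the sums were 419, 795 and 846 against 337, 308 and 350. In the miR-9 experiment the same sum was 1330, 350 and 336 in the sponge mice 17, 23 and 9 and 619, 1167 and 414 in its GFP Ctrl mice 16, 2 and 8, so it varied within both of those groups. Whether the amount of choroid plexus taken with the hippocampus contributes to the differences in the miR-34 experiment was not tested.

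Other structures at the border of the hippocampus also varied between mice. The 14 tested genes of the meninges had a median log2 fold change of -0.54, with 14 below 0. In 1 of the 14 all sponge mice lay below all controls, against 5.7% of all tested transcripts. Their sum was 552, 554 and 1302 RPM in control mice 10, 4 and 8 and 542, 534 and 601 in the sponge mice, so that control mouse 8 alone was high. Without this mouse the median was -0.02. Ptgds, the prostaglandin D synthase of the meninges and choroid plexus, was named after its values were seen, with 13618 reads in control mouse 8 and 5412 to 6085 in the other 5 mice. Lum, a matrix proteoglycan, was the gene with no overlap, with 110, 90.2 and 128 reads in the controls and 82.2, 66.3 and 74.5 in sponge mice 13, 18 and 3 (log2 fold change -0.55, adjusted p = 0.501).

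Some striatal genes were high in the same control mouse, while others, such as Drd2, a dopamine receptor gene with 35.4, 28.5 and 33.3 reads in controls 10, 4 and 8, were not. Six3, a homeobox gene, had 13.4, 23.7 and 123 reads in controls 10, 4 and 8 and 8.54, 7.87 and 10.6 in the sponge mice (log2 fold change -2.53, adjusted p = 0.556). Adora2a, an adenosine receptor gene, had 29.7, 29.7 and 111 reads in the controls and 27.9, 23.6 and 26.1 in the sponge mice (log2 fold change -1.11, adjusted p = 0.72). Ppp1r1b, or DARPP-32, was spread more evenly, with 649, 809 and 883 against 545, 539 and 596 (log2 fold change -0.47, adjusted p = 0.188). DESeq2 called Ppp1r1b lower. Of 13 tested striatal transcripts, 4 had all sponge mice below all controls, against 5.7% of all tested transcripts, and the median was -0.25. The summed striatal list was 147, 153 and 227 RPM in the controls and 129 to 146 in the sponge mice. Ependymal and cilia genes had a median of -0.25 over 14 transcripts, 13 below 0, and Rsph1, a radial spoke protein of motile cilia, had 92.9, 94.9 and 101 reads against 62.1, 74.2 and 82.3 (adjusted p = 0.64). The part of these neighbouring tissues in the result was not tested.

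**Figure D3:**
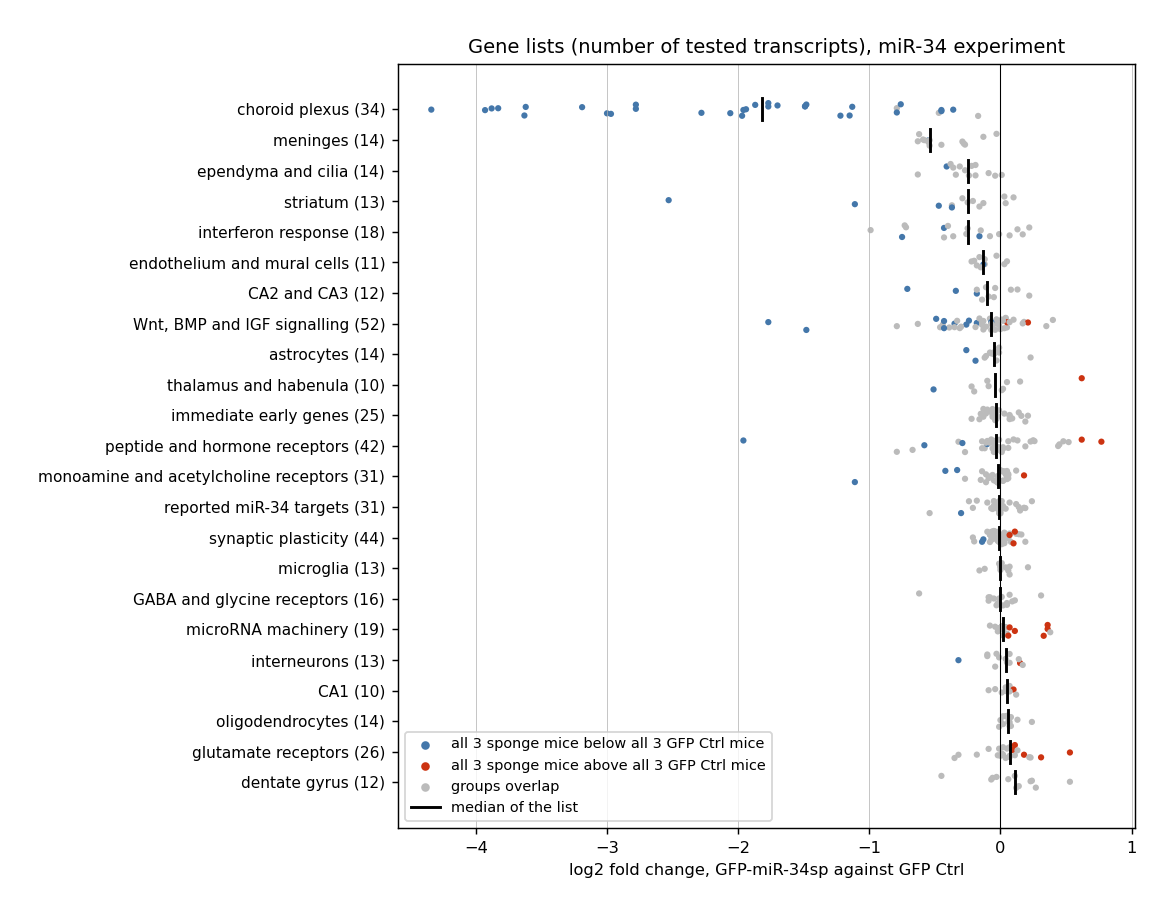
The log2 fold change (x axis) of every tested transcript of 23 gene lists (y axis, number of tested transcripts in brackets, ordered by median). Blue and red points mark transcripts whose sponge mice all lay below or all above the GFP Ctrl mice, grey points overlap, and black bars are list medians, which lie at -1.82 for the choroid plexus and between -0.54 and 0.11 for the other lists.

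Genes of the hippocampal cells themselves differed little. The tested CA1 markers (10) had a median log2 fold change of 0.05, and those of interneurons (13 transcripts), microglia (13), astrocytes (14) and oligodendrocytes (14) had 0.04, 0.00, -0.05 and 0.06. None of their members (0) passed the adjusted p limit, in edgeR. Gfap, the astrocyte filament protein, had 4613, 4616 and 4367 reads in controls 10, 4 and 8 and 4067, 3627 and 4238 in sponge mice 13, 18 and 3 on its main entry (log2 fold change -0.19, adjusted p = 0.503). Its second entry had the same order of groups, with a log2 fold change of -0.26 (adjusted p = 0.572). Sst, the somatostatin gene of interneurons, had 2717, 2840 and 2487 against 2904, 2934 and 3117 (log2 fold change 0.15, adjusted p = 0.604). The astrocyte list as a whole had 1 of its 14 transcripts above 0, and the oligodendrocyte list 13 of 14. Endothelial and mural cell transcripts (11) had a median of -0.13, with 9 below and 2 above 0. None (0) of these passed the adjusted p limit in edgeR.

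Within the principal cell fields, no marker (0) passed the adjusted p limit in edgeR, and the median log2 fold change was -0.10 for CA2 and CA3 and 0.11 for the dentate gyrus. At an unadjusted p under 0.05, 4 of 12 CA2 and CA3 transcripts were lower and 3 of 12 dentate gyrus transcripts were higher. Of all tested transcripts, 3.61% were lower and 2.77% higher at that limit. Rgs14, a signalling regulator that marks CA2, had 1667, 1719 and 1501 reads in controls 10, 4 and 8 and 1238, 1379 and 1242 in sponge mice 13, 18 and 3, with no overlap. Its log2 fold change was -0.34 (standard error 0.06, adjusted p = 0.0983), and DESeq2 called it. Map3k15 had 49.8, 58.1 and 41.1 against 28.7, 37.1 and 26.1, and Necab2, a calcium-binding protein, 1669, 1675 and 1695 against 1588, 1570 and 1284, both without overlap (adjusted p = 0.529 and 0.702). Of the 12 tested CA2 and CA3 transcripts, 3 had all sponge mice below all controls, against 5.7% of all tested transcripts, and 9 were below 0. Of 12 dentate gyrus transcripts, 8 lay above and 4 below 0. In none (0) were the groups apart, against 5.88% above and 5.7% below over all tested transcripts. Those with the smallest unadjusted p were above 0. Tdo2, a tryptophan dioxygenase of granule cells, had 99.6, 103 and 160 reads in the controls and 186, 144 and 188 in the sponge mice (log2 fold change 0.53, adjusted p = 0.629). Lct and Dsp had log2 fold changes of 0.27 and 0.24 (adjusted p = 0.644 and 0.72), and in all 3 genes the groups overlapped.

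Of the higher transcripts, none (0) passed the adjusted p limit in edgeR with all 6 mice, and the 12 with the smallest unadjusted p are described here by their values. Each had all 3 sponge mice above all 3 controls, which the choice by p makes likely. The plot of these transcripts relative to the GFP Ctrl mean shows this gap in each.

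**Figure D4:**
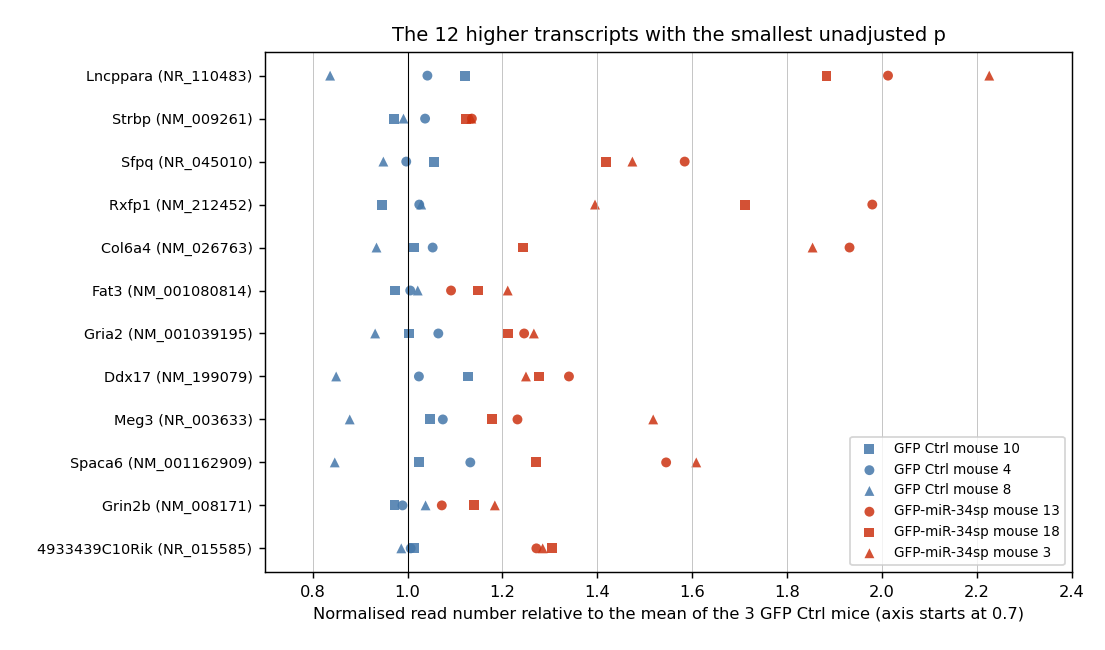
Normalised read number of the 12 higher transcripts with the smallest unadjusted p, relative to the mean of the 3 GFP Ctrl mice (x axis, starting at 0.7), in each GFP Ctrl mouse (blue) and each GFP-miR-34sp mouse (red). The ratios of group means run from 1.13 for Strbp and Grin2b to 2.04 for Lncppara.

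Lncppara, a long non-coding RNA, had 26.8, 24.9 and 20 reads in controls 10, 4 and 8 and 48.1, 45 and 53.2 in sponge mice 13, 18 and 3 (log2 fold change 1.02, adjusted p = 0.169). Rxfp1, the receptor of relaxin, had 46, 49.8 and 50 against 96.2, 83.2 and 67.8 (log2 fold change 0.77, adjusted p = 0.237). Col6a4, a collagen chain, had 65.1, 67.6 and 60 against 124, 79.8 and 119 (log2 fold change 0.76, adjusted p = 0.272). These were the 3 largest differences of the 12, and their controls lay within a narrow range.

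Fat3, an atypical cadherin that shapes dendrites, had 1540, 1591 and 1616 reads in controls 10, 4 and 8 and 1727, 1817 and 1916 in sponge mice 13, 18 and 3 (log2 fold change 0.20, adjusted p = 0.283). Strbp, a spermatid RNA-binding protein that neurons also express, had 2841, 3030 and 2897 against 3318, 3283 and 3315 (log2 fold change 0.18, adjusted p = 0.188). Both hold a miR-34 heptamer in the longest 3′ UTR, as does Grin2b, and 1956 of 11483 genes tested as sums do. The non-coding transcript 4933439C10Rik had close replicates, with 153, 152 and 149 reads against 192, 197 and 194 (log2 fold change 0.36, adjusted p = 0.365). Spaca6, a sperm protein gene, had 96.7, 107 and 80 against 146, 120 and 152 (log2 fold change 0.57, adjusted p = 0.36).

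Others of the 12 were an RNA helicase, a splicing factor and a nuclear RNA. Sfpq, a splicing factor, had a log2 fold change of 0.58 on its non-coding entry (76.6, 72.4 and 68.9 reads in controls 10, 4 and 8 against 115, 103 and 107 in sponge mice 13, 18 and 3, adjusted p = 0.216). The sum of both its entries differed by 0.12 only (adjusted p = 0.692). Ddx17, an RNA helicase that assists Drosha, had 659, 599 and 497 reads against 784, 747 and 731 on 1 entry and 548, 644 and 457 against 698, 657 and 714 on another, and the sum of its 4 entries gave a log2 fold change of 0.35 (adjusted p = 0.292). Its 3′ UTR holds 2 miR-34 heptamers, of which 1 is an 8mer at base 145 of 2305, shown because no other of the 12 transcripts joined to a 3′ UTR held one.
Ddx17: agttaaaatttCACTGCCAggtttcttctg
Meg3, a nuclear non-coding RNA, had 1211, 1243 and 1016 against 1425, 1363 and 1756 (log2 fold change 0.39, adjusted p = 0.351). DESeq2 called Meg3 higher, and edgeR called 1 entry of Ddx17 higher when control mouse 10 was left out.

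Other nuclear non-coding RNAs, named after their values were seen, were highest in sponge mouse 3. Malat1 had 12844, 13845 and 12628 reads in controls 10, 4 and 8 and 15864, 14403 and 25632 in sponge mice 13, 18 and 3 (log2 fold change 0.51, adjusted p = 0.572). Kcnq1ot1 had 301, 422 and 370 against 395, 505 and 1041, with overlapping groups (log2 fold change 0.83, adjusted p = 0.655). Neat1 had 1428, 1708 and 1402 against 1649, 1492 and 2559 (log2 fold change 0.33, adjusted p = 0.798). Their part in the values of Meg3, Ddx17 and Sfpq was not tested.

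Most glutamate receptor transcripts lay slightly above 0. None (0) passed the adjusted p limit in edgeR. At an unadjusted p under 0.05, 4 were higher and 1 was lower, against 2.77% and 3.61% of all tested transcripts. Of 26 tested transcripts, 20 had a log2 fold change above 0, the median was 0.07, and 6 had all sponge mice above all controls while 0 had all below, against 5.88% and 5.7% of all tested transcripts. Their summed reads were 1792, 1812 and 1808 RPM in controls 10, 4 and 8 and 1868, 1892 and 1892 in sponge mice 13, 18 and 3. Grin2b, the NMDA receptor subunit GluN2B, had 4177, 4249 and 4458 against 4605, 4895 and 5085 (log2 fold change 0.18, standard error 0.04, adjusted p = 0.36). Gria2, the AMPA receptor subunit that limits calcium entry, had 294, 312 and 273 against 365, 355 and 371 on 1 entry, and the sum of its 3 entries gave 939, 1025 and 971 against 1115, 1068 and 1111 (log2 fold change 0.17, adjusted p = 0.49). The sponge mice were above the controls in both measures. Gria4, another AMPA subunit, gave 0.53 on its tested entry and 0.18 as a sum (adjusted p = 0.702 and 0.8). Grik4, a kainate subunit of CA3, was lower instead, with 1437, 1435 and 1274 reads against 1279, 1213 and 1156 (log2 fold change -0.18, adjusted p = 0.572), and the groups overlapped.

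Inhibitory and neuromodulatory receptors showed no common direction. GABA and glycine receptor genes had 8 transcripts above and 8 below 0. Gabrd, the extrasynaptic delta subunit of granule cells, had 282, 278 and 403 reads in controls 10, 4 and 8 and 362, 407 and 431 in sponge mice 13, 18 and 3 (log2 fold change 0.31, adjusted p = 0.714), with overlap through control 8. Of 31 monoamine and acetylcholine receptor transcripts, 15 lay above and 16 below 0. Htr2c, the serotonin 2C receptor that the choroid plexus and neurons express, had 1163, 1257 and 1349 reads against 1033, 1073 and 897 (log2 fold change -0.33, adjusted p = 0.237). DESeq2 called Htr2c lower. Htr2c also carries an 8mer, at base 1760 of 2682 of its 3′ UTR, shown as another lower transcript with a full site.
Htr2c: ttggtttacaaCACTGCCAaatgtcactca
Adrb1, the beta-1 adrenergic receptor, had 406, 371 and 367 against 410, 457 and 433 (log2 fold change 0.18, adjusted p = 0.703). Among peptide receptors Tacr1, the substance P receptor, had 68, 74.7 and 81.1 against 43.5, 63 and 44.5 (log2 fold change -0.58, adjusted p = 0.564).

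Most transcripts of the miRNA pathway lay slightly above 0. None (0) passed the adjusted p limit in edgeR. At an unadjusted p under 0.05, 4 were higher and 0 were lower, against 2.77% and 3.61% of all tested transcripts. Separate entries of Ddx17 are counted singly in these numbers. Of 19 tested transcripts, 14 were above 0, 6 had all sponge mice above all controls and 0 had all below, against 5.88% and 5.7% of all tested transcripts. Their sum was 2571, 2545 and 2519 RPM in controls 10, 4 and 8 and 2606, 2631 and 2679 in sponge mice 13, 18 and 3. The median was 0.02, so the differences were small in most. Ddx5, the helicase partner of Ddx17, had 14477, 14635 and 14381 reads against 15333, 15043 and 15388 (log2 fold change 0.07, adjusted p = 0.741). Xrn2, a nuclear exonuclease, had 1091, 1085 and 1122 against 1200, 1177 and 1185 (log2 fold change 0.11, adjusted p = 0.702).

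Synaptic plasticity genes had 19 transcripts above and 25 below 0. Ppp1r9b, or spinophilin, had 24322, 24888 and 23853 reads in controls 10, 4 and 8 and 22884, 23038 and 20995 in sponge mice 13, 18 and 3 (log2 fold change -0.13, adjusted p = 0.583). Prkca, a protein kinase C, had 9199, 9500 and 8487 against 8335, 8425 and 7943 (log2 fold change -0.14, adjusted p = 0.607). Of 52 transcripts of Wnt, BMP and IGF signalling, 37 lay below 0, with Fzd4 at 173, 178 and 198 reads against 134, 160 and 116 (log2 fold change -0.43, adjusted p = 0.521), and its lowest members were the choroid plexus genes Sostdc1 and Igf2. Of 18 interferon response transcripts, 14 lay below 0 and 3 had all sponge mice below all controls, against 5.7% of all tested transcripts. The antigen presentation genes H2-K1, H2-D1 and B2m lay above 0, at 0.17, 0.22 and 0.13. Isg15, a ubiquitin-like antiviral protein, had 35.4, 45.1 and 37.8 reads against 27.2, 18 and 23.2 (log2 fold change -0.75, adjusted p = 0.523). None of 25 immediate early transcripts (0) had separate groups, against 5.88% above and 5.7% below over all tested transcripts. Their summed list ranged from 983 to 1392 RPM in controls and from 895 to 1395 in sponge mice.

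Reported miR-34 targets did not shift as a group. A list of 45 genes held 31 with enough reads when the entries of a gene were summed, 24 of them with a heptamer and 17 with an 8mer in the longest 3′ UTR. The heptamer is CACTGCC and the 8mer CACTGCCA, which contains it, and both were searched on the transcript strand only. The 24 genes with a heptamer had 14 values above and 10 below 0, with a median of 0.01. The 17 with an 8mer had 9 above and 8 below, with a median of 0.00 and values from -0.59 to 0.23. At an unadjusted p under 0.05, 0 of the 24 were higher and 1 was lower, where 2.46% and 3.95% of the 11483 gene sums with a 3′ UTR were. No gene (0 of 31) passed the adjusted p limit, and 2 of 31 had an unadjusted p under 0.05, both lower.

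**Figure D5:**
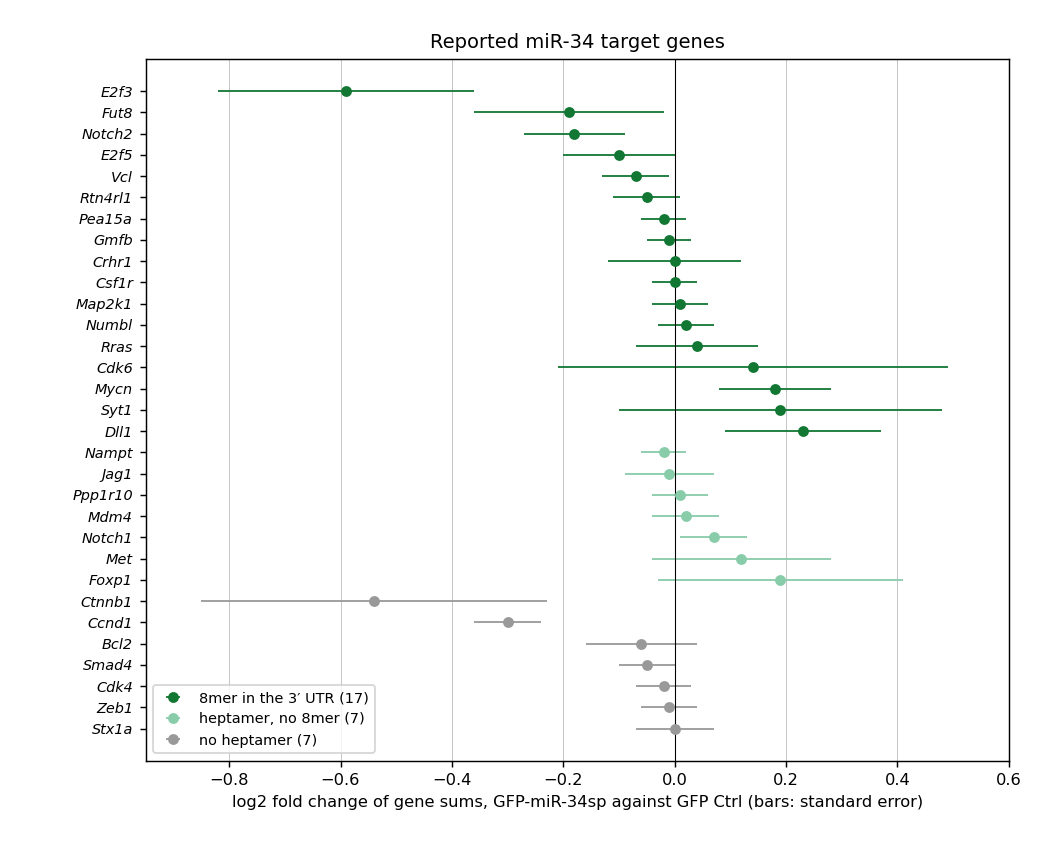
The log2 fold change of gene sums with its standard error (x axis) for the 31 tested genes of the reported miR-34 target list (y axis), grouped by the site found in the longest 3′ UTR. The 17 genes with an 8mer (dark green) span -0.59 to 0.23 around 0, and Ccnd1, at -0.30, has no heptamer.

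The cell cycle genes on the list included both of these. E2f3, a transcription factor of the G1 to S transition, had 26.8, 22.5 and 26.7 reads in controls 10, 4 and 8 and 17.8, 18 and 14.5 in sponge mice 13, 18 and 3, as the sum of its entries. Its log2 fold change was -0.59 (standard error 0.23, adjusted p = 0.709), although it holds 2 heptamers. Ccnd1, or cyclin D1, had 1478, 1348 and 1366 reads against 1173, 1194 and 1050 (log2 fold change -0.30, standard error 0.06, adjusted p = 0.166). No heptamer was found in its annotated 3′ UTR, and DESeq2 called it lower. Cdk6, a kinase that cyclin D1 activates, had 0.14 and E2f5 -0.10. The first 8mer of genes with low, high and near-zero values is shown, with the match in capitals, so that the sites can be read beside the values.
E2f3: tcatttgtaaaCACTGCCAgaatattttct
Notch2: gaagaagacaaCACTGCCAgtcatacatct
Mycn: acacggacagtCACTGCCActttgcacatt
Dll1: gaggcgcccgaCACTGCCAgcctaggcttt
Map2k1: gcagagcccatCACTGCCAtgatagctggg

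The Notch pathway, a known object of miR-34, was split. Dll1, a Notch ligand on chr17:15504318-15513836, had 155, 167 and 160 reads in controls 10, 4 and 8 and 161, 171 and 236 in sponge mice 13, 18 and 3 (log2 fold change 0.23, adjusted p = 0.863), with sponge mouse 3 alone above the controls by more than their range. Notch2 (chr3:97817461-97954290) had 957, 1032 and 1212 against 872, 903 and 1047 (log2 fold change -0.18, adjusted p = 0.797). Notch1, with 3 heptamers, had 0.07 and the ligand Jag1 -0.01. Numbl, an inhibitor of Notch, had 0.02. Mycn (chr12:12942902-12948720), a growth-promoting transcription factor, had 229, 214 and 196 reads against 221, 232 and 271 (log2 fold change 0.18, adjusted p = 0.855). The groups overlapped in all of them.

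Abundant targets with a full site had small standard errors. Pea15a, a phosphoprotein of survival signalling, had 10804, 10638 and 10920 reads in controls 10, 4 and 8 and 10756, 10992 and 10133 in sponge mice 13, 18 and 3 (log2 fold change -0.02, standard error 0.04). Map2k1, the kinase MEK1, had 6517, 6129 and 6488 against 6485, 6781 and 6022 (0.01, standard error 0.05). Gmfb, glia maturation factor beta, had 5743, 5940 and 5544 against 5872, 5563 and 5668 (-0.01, standard error 0.04). For these 3 the groups overlapped throughout. Syt1, a calcium sensor of vesicle release, had reads on 1 of its 3 entries, 16.7 to 30.4 per mouse, so it was measured at little depth.

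Over all genes, those with a miR-34 heptamer or 8mer had nearly the same centre as those without a heptamer. Other kinds of site were not searched, and conservation of the sites was not required. Of 11483 genes summed over their entries and joined to a GENCODE 3′ UTR, 683 (5.95%) held an 8mer and 1956 a heptamer. The median log2 fold change was -0.0040 with an 8mer, -0.0022 with a heptamer, -0.0027 without a heptamer and -0.0025 over all. The 372 genes with 2 or more heptamers had a median of -0.0087. With an 8mer, 3.66% were higher and 4.69% lower at an unadjusted p under 0.05, and without a heptamer 2.34% and 3.93%. All sponge mice lay above all controls in 6.3% of genes with an 8mer and 5.56% of those without a heptamer, and below in 5.86% and 6.12%. The quartiles were -0.06 and 0.06 with an 8mer and -0.07 and 0.06 without a heptamer. All genes were read in 1 set of 6 mice, so these values are descriptions.

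Whether the differences were particular to the miR-34 sponge was tested against the miR-9 sponge in 1 model of all 12 mice, each sponge against 3 GFP Ctrl mice. The labels do not name the experiment of the second GFP Ctrl set, which was taken as the control of the miR-9 sponge from the study's methods. None (0) of 13193 transcripts passed the adjusted p limit for the difference between the sponge effects in edgeR, with 363 and 452 at an unadjusted p under 0.05 in the higher and lower direction. DESeq2 called 1 higher and 4 lower, namely Gfra2, Lynx1, Rgs14, Ppp1r9b and Hapln4. For Ttr the log2 effect was lower by 4.08 in the miR-34 experiment (standard error 1.51, adjusted p = 0.758), and in the miR-9 experiment Ttr had 15383, 426 and 323 reads in sponge mice 17, 23 and 9 and 4763, 13100 and 1641 in GFP Ctrl mice 16, 2 and 8. For Tmem72, Aqp1 and Slc16a8 the difference was -4.18, -3.84 and -1.77 (adjusted p = 0.717, 0.717 and 0.787). In the miR-9 experiment Ttr thus ranged widely within each group, and for these 4 genes the difference between the sponge effects did not pass the adjusted limit. Their unadjusted p in edgeR was 0.0167 for Ttr, 0.00559 for Tmem72, 0.007 for Aqp1 and 0.0535 for Slc16a8. With standard errors of 0.84 to 1.51, the test could not decide whether the lower values were particular to the miR-34 sponge. For Rxfp1 and Lncppara the difference of effects was 0.94 and 0.81 (adjusted p = 0.717 for both).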

How the data were processed

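RNA of the hippocampi of 6 mice was sequenced after poly-A enrichment as 50 bp single end reads. The deposited values are raw counts that the authors obtained by trimming, mapping (STAR, per the submitters' processing notes) and counting reads on RefSeq transcripts. The methods name mm9 and the submitters' processing notes mm10, and the counting tool and its rule for reads shared between entries are not given in the sources used here. The authors also deposited another value, the length of each entry. The table holds 32850 transcripts, 98.7% joined to a symbol.

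Groups came from the labels. Transcripts with a mean above 10 scaled reads were tested with edgeR 4.0.16 (R 4.3.3, TMM factors 0.994 to 1.01, biological coefficient of variation 0.052, quasi-likelihood test, Benjamini-Hochberg), with DESeq2 1.42.0 as the alternative. The code was checked on simulated counts with 1 spread for all transcripts, where 94% of 50 transcripts raised 2-fold were called among 12787. Of those raised and lowered 1.5-fold, 80% and 74% were called. In the real counts the spread differs between transcripts, so these shares do not show how many real changes would be called. With 3 mice a group, the smallest p of an exact permutation test is 0.1. The p-values of edgeR set the group difference against the spread between mice, estimated with information shared across transcripts. Sites and mm9 gene coordinates came from GENCODE M1. Named genes were the adjusted calls, the 12 higher and 12 lower transcripts with the smallest unadjusted p, up to 4 members of each list and all of the choroid plexus list, the miR-34 and miR-449 genes, and reported targets with a site. Members and lists were chosen with earlier results of these data known. The alternatives were other tools, scalings, limits and units, the study's criterion, 1 model of all mice, and leaving out each mouse. pandas 2.3.3 and matplotlib 3.10.9 were used.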

Additional observations from a re-analysis of the deposited data

How the results depend on the processing

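The number of calls depended on the processing, and the main values were 0 higher and 4 lower. DESeq2 gave 1 higher and 36 lower, RLE size factors 8 lower, sums by gene symbol 8 lower and no filter beyond 1 read 35 higher and 105 lower. The limit of 100 reads, the choroid plexus list left out before scaling, and all 12 mice in 1 model gave 0 lower, and total counts kept 4. Of the 4, the limit of 100 reads leaves Ttr alone, and leaving out the list removes all. The study's criterion, p under 0.05 without adjustment (unpaired, two-sided) and a ratio above 1.2 or below 0.833, gave 99 higher and 160 lower. Leaving out 1 mouse gave 0 to 1 higher and 0 to 59 lower. For the difference between the sponge effects, DESeq2 gave 1 higher and 4 lower in place of 0 and 0. The median of the meninges list ranged from -0.71 to -0.02 and that of the miRNA pathway list from 0.02 to 0.07 over the fits with 1 mouse fewer. With 5 mice the members of the lists other than the choroid plexus whose groups did not overlap numbered 33 to 48 higher and 51 to 65 lower, in place of 22 and 33, since fewer mice overlap less often. Named genes that changed sign when 1 mouse was left out were Ntng1 (-0.34 to 0.16), Cd68 (-0.05 to 0.42), Slc1a2 (-0.22 to 0.01) and Cldn11 (-0.03 to 0.15), none of them called. Several list medians near 0 also changed sign, among them immediate early genes (-0.20 to 0.20) and oligodendrocytes (-0.04 to 0.12). The 4 transcripts called lower kept their direction in all alternatives that tested them, with adjusted p up to 0.551. Apart from the effects of construction, the cause of the changes between alternatives was not tested. No paired analysis was possible because no title number occurs in both groups. Counts of reads limit the low genes: 3 reads were 0.177 to 0.272 RPM.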

Other observations

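In all, 24 tested transcripts outside the choroid plexus list had a log2 fold change of -1 or less and 8 had one of 1 or more, against 26 of 34 on the list at -1 or less. The genes named here were chosen after their values were seen, and none (0) passed the adjusted p limit in edgeR with all 6 mice. Steap1, a metalloreductase, had 12.4, 42.7 and 47.8 reads in GFP Ctrl mice 10, 4 and 8 and 3.1, 3.37 and 4.84 in GFP-miR-34sp mice 13, 18 and 3 (log2 fold change -3.12, edgeR adjusted p = 0.1). Prr32 had 22, 52.2 and 47.8 against 3.88, 7.87 and 9.68 (log2 fold change -2.51, edgeR adjusted p = 0.0758), and DESeq2 called it lower. Oca2, a melanosomal transporter, and Trpm3, a cation channel, on 1 of its 9 entries, had log2 fold changes of -2.01 and -2.28 (edgeR adjusted p = 0.166 and 0.223). Control mouse 10 was the lowest control in each of these 4, as in the choroid plexus genes. Of all 429 lower transcripts at an unadjusted p under 0.05 that were not on the list, control mouse 10 was the lowest control in 54.8%, against 34.3% of all tested transcripts.

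On the higher side, Wnt10b, a Wnt ligand, had 3.83, 13 and 6.67 reads in the controls and 20.2, 13.5 and 22.3 in the sponge mice (log2 fold change 1.31, edgeR adjusted p = 0.564). One entry of Arpp21 had 5.74, 8.3 and 4.44 against 10.9, 13.5 and 28.1 (log2 fold change 1.48, edgeR adjusted p = 0.572). Both rest on few reads.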
